A study of Drosophila melanogaster with 12 samples.

Results

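The 39 genes described here encode the DNA repair machinery of Drosophila: proteins that sense and rejoin double-strand breaks, carry out homologous recombination, excise damaged or mismatched bases, deal with crosslinks and reverse damage directly. They were chosen by name and by no rule on their levels, but with earlier results of these data known. All 39 were found among the 17753 genes of the count table and passed the filter on low counts, which kept 10617 genes. The study sorted cells from wing discs of larvae of the genotype w1118/+ or Y; 30A-GAL4>UAS-G-trace/+. G-trace is a lineage reporter in which RFP marks present and GFP past activity of the GAL4 driver, and 30A-GAL4 is an insertion in the ds gene that is active in the hinge of the disc. POS cells (RFP+GFP+) were therefore hinge cells and NEG cells (RFP-GFP-) came from the rest of the disc, each pooled from many discs over several crosses, dissections and sorts. Larvae received 4000 R of X-rays and were processed 24 h (IR+24h) or 48 h later (IR+48h), or were mock irradiated and processed after 24 h (-IR), with 2 libraries in each of the 6 groups. There were no -IR libraries of 48 h, and larvae of the IR+48h groups had been irradiated at more than 1 age, so the effect of IR and that of further development at IR+48h cannot be told apart.

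X-rays break both strands of DNA and also damage bases. Breaks are bound by the Mre11-Rad50-Nbs complex and by the Ku heterodimer, which in flies consists of Irbp (the Ku70 protein) and Ku80, and Parp marks broken DNA with poly(ADP-ribose). Ends are then either joined directly, by a route that starts with Ku, or repaired by copying the sister strand, by homologous recombination. In wing discs, cells that survive irradiation repair their DNA while other cells die and are replaced by division of the survivors. In flies, the transcription factor p53 is known to activate end joining genes as well as genes of apoptosis after irradiation.

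The 12 libraries held between 4211088 and 19940040 counts, and the shallowest was NEG -IR replicate 1. Levels are given as CPM, the counts of a gene per 1000000 counts of the library after normalisation. The sum of 4 hinge markers was 4613 to 6918 CPM in POS -IR and 921 to 1121 CPM in NEG -IR, as the sort implies, and NEG -IR also held transcripts of muscle precursors (5 markers, 553 to 1535 CPM against 63.3 to 111 CPM in POS -IR) and hemocytes (5 markers, 58.1 to 130 CPM against 1.80 to 2.73 CPM). Of the 39 members, 38 had at least 10 counts in every library. The exception was spn-D, with a lowest count of 1.

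Both -IR replicate 1 libraries stood apart for these genes. In POS -IR, 36 of 39 members were higher in replicate 1 than in replicate 2 (92.3%, against 53.1% of all tested genes), with a median log2 ratio of 0.64. In NEG -IR, 31 of 39 members were higher in replicate 1 (79.5% against 47.5%), with a median log2 ratio of 0.45. Among the members, 30 were higher in replicate 1 in both pools (76.9%), against 34.4% of all tested genes. Replicate 1 exceeded replicate 2 by 2.91-fold in POS -IR and 2.06-fold in NEG -IR for agt, and by 2.47-fold and 2.40-fold for XRCC1, whereas the ratios of Parp were 0.876 and 0.967. At IR+24h the lean was the other way, with 6 of 39 members in POS and 10 of 39 in NEG higher in replicate 1. Changes against -IR are therefore also given without both -IR replicate 1 libraries and without both -IR replicate 2 libraries. Those fits keep 1 -IR library per pool and assume that it varies like the other groups.

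**Figure D1:**
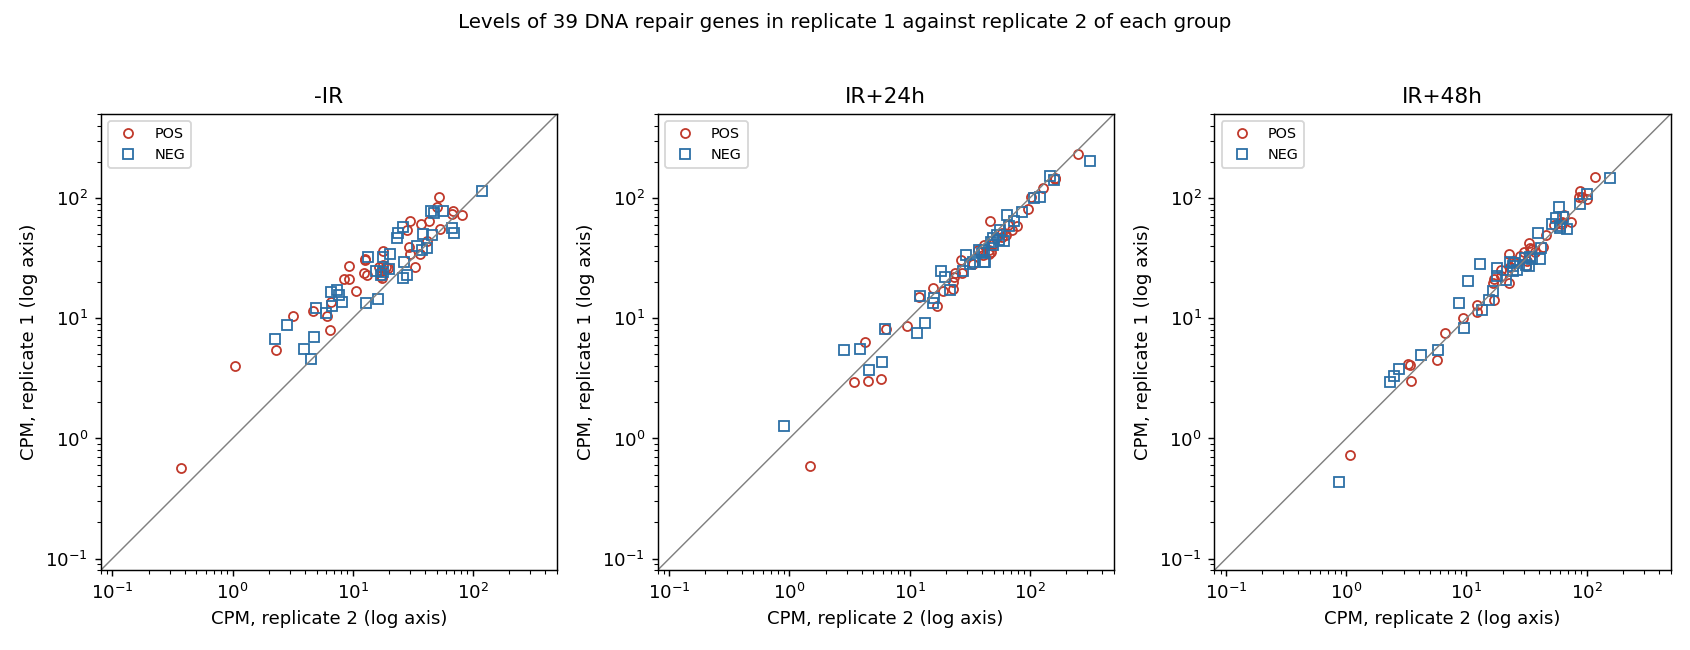
Normalised levels (CPM, log axes) of the 39 DNA repair genes in replicate 1 against replicate 2 of each group, with POS cells as circles and NEG cells as squares. Points lie mostly above the line of equality in the -IR panel (36 of 39 in POS, 31 of 39 in NEG) and mostly below it at IR+24h.

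Averaged over POS and NEG cells, 14 of the 39 DNA repair genes (35.9%) rose at IR+24h, and 10 of the 14 rose at least 2-fold. The same test found 6.77% of the 10617 genes higher. No member fell by edgeR, where 3.21% of all genes were lower and 2 members had a lower value at an unadjusted p under 0.05. In either direction, limma voom called 15 members and 9.67% of all genes, and DESeq2 14 members and 15% of all genes. The median log2 change was 0.43 over the members and -0.03 over all tested genes, with 28 members positive and 11 negative. The values of all 14 genes stayed positive without the -IR replicate 1 libraries and without the -IR replicate 2 libraries. Those fits leave out the spread between the -IR replicates, and calls over all genes rose in them. Calls kept or gained there are therefore not a result about the members. POS and NEG libraries of the same time and replicate number deviated together, with correlations of 0.55 for the -IR libraries, 0.17 for IR+24h libraries and 0.21 for the IR+48h libraries. With such libraries as a replicate block in limma voom (estimated correlation 0.36), 13 members were called at IR+24h and 5.93% of all genes, with XRCC1 gained and Ercc1 and mus201 lost. For 18 members both IR+24h libraries lay above both -IR libraries in each of the 2 pools, which held for 12.3% of all tested genes.

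**Figure D2:**
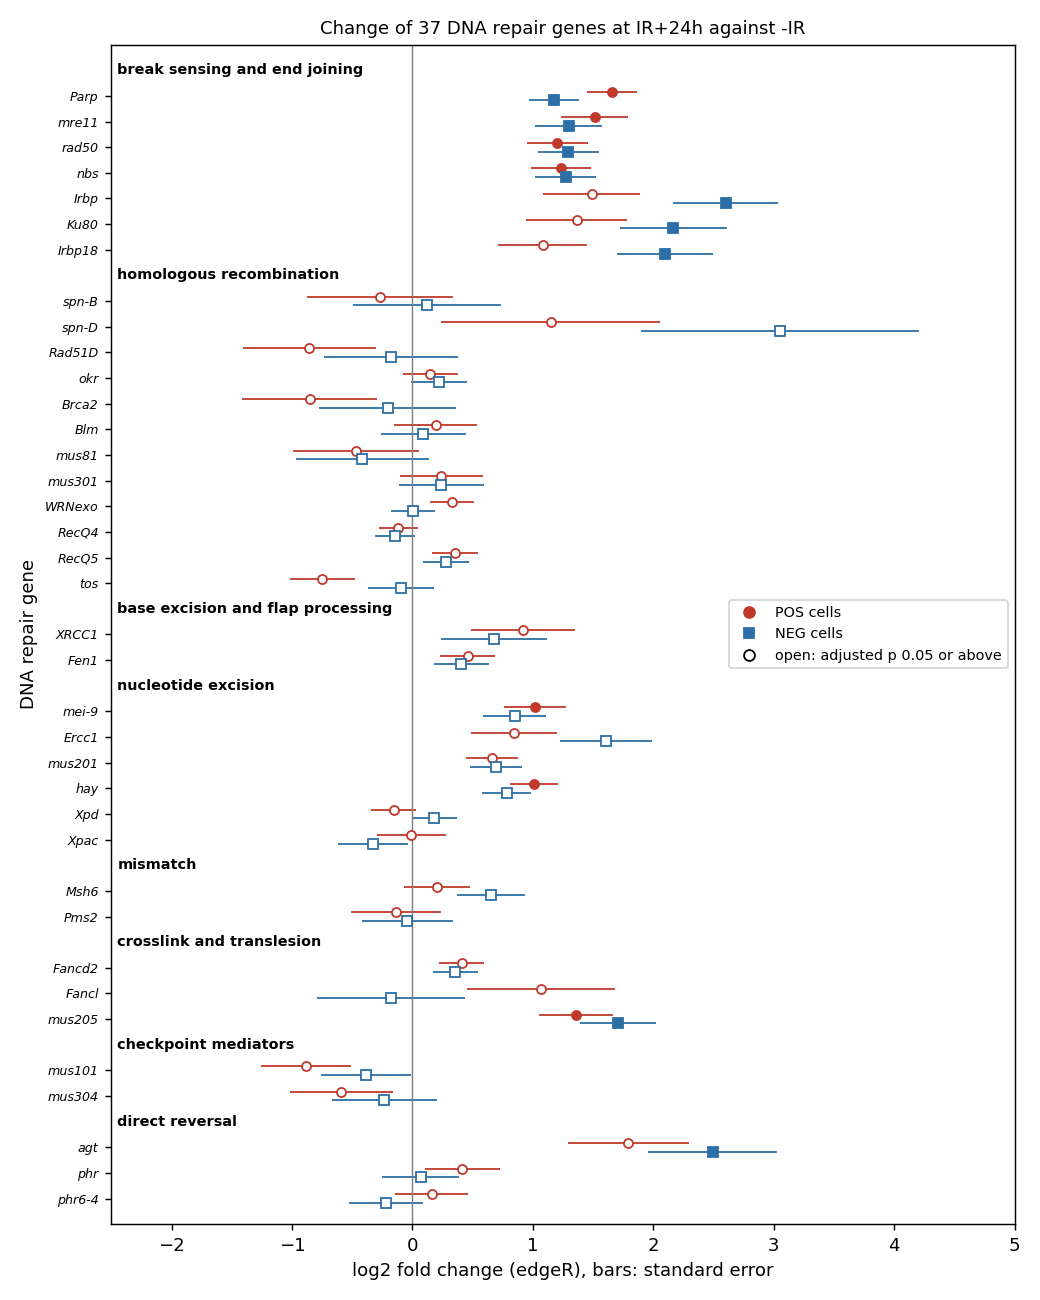
Log2 fold change at IR+24h against -IR (x axis, bars are standard errors) of 37 of the 39 DNA repair genes, grouped by role, in POS cells (circles) and NEG cells (squares), with filled symbols past the adjusted p threshold of 0.05. All 7 genes listed under break sensing and end joining lie to the right of 0 in both pools, while the 12 homologous recombination genes drawn spread around 0.

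All 7 genes listed here under break sensing and end joining rose at IR+24h, with a median log2 change of 1.42. The list includes Irbp18, which is not itself an end joining enzyme. Parp encodes the poly(ADP-ribose) polymerase that binds broken DNA. In POS cells it was at 71.9 and 82.0 CPM in the -IR libraries, 235 and 251 CPM at IR+24h and 151 and 118 CPM at IR+48h. In NEG cells it was at 114 and 118 CPM in -IR, 206 and 319 CPM at IR+24h and 147 and 158 CPM at IR+48h. The irradiated libraries did not overlap with the -IR libraries of the same pool, and the 2 NEG IR+24h libraries differed from each other more than those of the other groups. The mean log2 change of Parp at 24 h was 1.42 (SE 0.15, adjusted p = 1.106e-04), a 2.67-fold rise, and it passed the threshold in POS cells alone (1.66, adjusted p = 0.00107) and in NEG cells alone (1.17, adjusted p = 0.01109).

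The genes of the complex that binds and trims broken ends, mre11 (nuclease), rad50 (its ATPase partner) and nbs (the subunit that links the complex to checkpoint kinases), rose by 1.25 to 1.40 on the log2 scale. In POS cells mre11 was at 65.0 and 42.9 CPM in -IR and at 145 and 163 CPM at IR+24h. In NEG cells it went from 78.4 and 45.1 CPM to 152 and 148 CPM. The groups were well apart in both pools, although the -IR replicates differed by 1.51-fold and 1.74-fold. The rad50 libraries read 84.9 and 50.4 CPM in POS -IR, 148 and 163 CPM in POS IR+24h, 75.5 and 47.7 CPM in NEG -IR against 141 and 158 CPM in NEG IR+24h. For nbs the values were 27.6 and 17.9 CPM, 47.9 and 58.9 CPM, 23.0 and 17.2 CPM, and 46.4 and 49.8 CPM in the same order. No -IR library of these 3 genes reached an irradiated library of its pool at 24 h. Their mean log2 changes were 1.40 (SE 0.20, adjusted p = 8.503e-04) for mre11, 1.25 (SE 0.18, adjusted p = 0.001009) for rad50 and 1.25 (SE 0.18, adjusted p = 9.075e-04) for nbs. In the separate tests of POS and of NEG cells all 3 were called.

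Both subunits of Ku rose. Irbp was at 21.1 and 8.44 CPM in POS -IR and at 36.9 and 45.6 CPM in POS IR+24h, and at 11.1 and 6.03 CPM in NEG -IR against 44.8 and 55.1 CPM in NEG IR+24h. Ku80 was at 30.4 and 12.6 CPM in POS -IR and 51.1 and 59.2 CPM in POS IR+24h, and at 17.2 and 7.34 CPM in NEG -IR against 43.8 and 61.2 CPM in NEG IR+24h. The groups did not overlap, but replicate 1 of -IR was 1.85-fold to 2.51-fold above replicate 2 for these genes. The mean log2 changes were 2.04 (SE 0.30, adjusted p = 0.001079) for Irbp and 1.77 (SE 0.31, adjusted p = 0.003518) for Ku80, which is 4.12-fold and 3.40-fold. Over 21 alternatives, which include both sets of -IR libraries, the change of Irbp lay between 1.58 and 2.68 and that of Ku80 between 1.25 and 2.50. In the separate tests both passed in NEG cells (adjusted p = 0.008842 and 0.0279), and the POS values were 1.49 (adjusted p = 0.05536) and 1.37 (adjusted p = 0.0906).

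Irbp18, listed with this group for its inverted repeat binding activity, encodes a basic leucine zipper protein that pairs with the transcription factor Xrp1 and is not itself an end joining enzyme. It was at 26.5 and 16.7 CPM in POS -IR, 41.5 and 49.9 CPM in POS IR+24h, 12.6 and 6.68 CPM in NEG -IR against 37.3 and 42.0 CPM in NEG IR+24h. The irradiated libraries were again all higher than the -IR libraries of their pool. Its mean log2 change was 1.59 (SE 0.27, adjusted p = 0.003144), and it passed in NEG cells alone (2.10, adjusted p = 0.0173) with a POS value of 1.08 (adjusted p = 0.1294). Of its exon bases, 15.5% overlap CG33947 on the other strand, a gene at 0.592 to 2.54 CPM, and the strand of counting is not given in the sources used here.

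Of homologous recombination genes, 0 of 13 were past the threshold at IR+24h by edgeR, limma voom or DESeq2. Their median log2 change was 0.14. Over all genes edgeR called 9.98% in either direction, limma voom 9.67% and DESeq2 15%, so 0 of 13 is not a result about this group. For spn-D and RecQ5 the IR+24h libraries lay above the -IR libraries in both pools, which held for 12.3% of all tested genes. Of the 13, 4 had an unadjusted p under 0.05 by edgeR. These genes included spn-B, spn-D, Rad51D, okr (Rad54) and Brca2, which act in strand exchange, the helicases Blm, mus301, RecQ4 and RecQ5, the exonuclease genes WRNexo and tos (Exo1), and the nuclease subunit mus81. Changes ran from -0.53 for Brca2 to 2.10 for spn-D. Of the 13, 7 were positive and 6 negative. No test compared this group with the break sensing and end joining genes.

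The direction of several of these genes depended on which -IR library was used. Without the -IR replicate 2 libraries, Brca2 was at a mean log2 change of -1.05, mus81 at -0.98 and Rad51D at -0.96, and all 3 then passed the threshold as lower (adjusted p = 0.02539, 0.01968 and 0.03772). Without the -IR replicate 1 libraries the same genes were at 0.25, 0.35 and 0.19. Likewise, Blm was at 0.69 without replicate 1 and past the threshold as higher, and at -0.26 without replicate 2. No direction is given for these 4 genes. RecQ4 had values of -0.12 in POS and -0.14 in NEG cells with SEs of 0.16, and its levels lay between 46.9 and 67.0 CPM over the 12 libraries.

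Counts of spn-D were too low for a firm level. NEG -IR held 1 count in each library, against 16 and 13 counts in NEG IR+24h, and POS -IR held 7 and 6 counts against 8 and 23 in POS IR+24h. Allowing for library size, NEG IR+24h was 9.63 times NEG -IR (exact 95% counting interval 2.44 to 83.3) and POS IR+24h was 2.34 times POS -IR (1.19 to 4.87). These intervals cover counting error only, and by edgeR neither change was past the threshold (adjusted p = 0.2686 in NEG and 0.5776 in POS).

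Nucleotide excision genes rose in part, with 4 of 6 past the threshold. This pathway cuts out bulky lesions with a nuclease on each side, encoded by mei-9 (XPF) with its partner Ercc1 and by mus201 (XPG), after hay (XPB) and Xpd, helicases of the general transcription factor TFIIH, open the helix, with Xpac (XPA) at the lesion. mei-9 was at 22.7 and 17.2 CPM in POS -IR and 34.4 and 46.0 CPM in POS IR+24h, and at 24.4 and 17.7 CPM in NEG -IR against 35.0 and 40.1 CPM in NEG IR+24h. Ercc1 was at 10.5 and 6.14 CPM in POS -IR and 12.7 and 16.9 CPM in POS IR+24h, and at 4.6 and 4.50 CPM in NEG -IR against 15.4 and 12.3 CPM in NEG IR+24h. Both nuclease subunits were higher in every irradiated library at 24 h than in the -IR libraries of the same pool, with the narrowest margin for Ercc1 in POS cells. mus201 was at 34.0 and 36.4 CPM in POS -IR and 64.3 and 47.0 CPM in POS IR+24h, and at 29.3 and 26.7 CPM in NEG -IR against 43.0 and 47.3 CPM in NEG IR+24h. hay was at 39.3 and 29.5 CPM in POS -IR and 59.1 and 79.1 CPM in POS IR+24h, and at 48.9 and 45.8 CPM in NEG -IR against 76.0 and 86.8 CPM in NEG IR+24h. None of these groups overlapped within a pool.

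The mean log2 changes of the 4 were 0.93 for mei-9 (SE 0.18, adjusted p = 0.007773), 1.22 for Ercc1 (SE 0.26, adjusted p = 0.01162), 0.68 for mus201 (SE 0.15, adjusted p = 0.01537) and 0.90 for hay (SE 0.14, adjusted p = 0.001974). hay and mei-9 also passed in POS cells alone (adjusted p = 0.014 and 0.04335). Xpd, the other TFIIH helicase, had a change of 0.01 (95% interval -0.27 to 0.30), and Xpac one of -0.17 (-0.61 to 0.28). Ercc1 lost its call without POS IR+24h replicate 2 or NEG IR+24h replicate 1, mei-9 without POS IR+24h replicate 2, and mus201 without NEG IR+24h replicate 2 or POS IR+24h replicate 1. Exon bases of mei-9 overlap lncRNA:CR44957 on the same strand (10.6%), a gene at 0.291 to 3.18 CPM with a mean log2 change of 1.13. Those of hay overlap CG34001 on the same strand (4.45%), with a mean log2 change of -0.36. Those of Ercc1 overlap Ciao1 on the other strand (9.05%), with a mean log2 change of 0.01. The part of these overlaps in the values was not tested.

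The mismatch repair genes Msh6, which recognises mismatches, and Pms2, which acts after recognition, had values of 0.43 (adjusted p = 0.2072) and -0.09 (adjusted p = 0.8797). Msh6 was called as higher in 2 of 21 alternatives, with values from 0.12 to 0.84. Pms2 stood at 0.51 without the -IR replicate 1 libraries and was called as lower, at -0.51 (adjusted p = 0.04565), without the -IR replicate 2 libraries, so no direction is given for it. Direct reversal and translesion synthesis each contributed 1 gene. agt encodes the alkyltransferase that removes alkyl groups from guanine, and it had the highest mean log2 change of the 39 members at IR+24h. It was at 27.1 and 9.31 CPM in POS -IR and 54.6 and 70.8 CPM in POS IR+24h, and at 15.7 and 7.63 CPM in NEG -IR against 59.2 and 66.8 CPM in NEG IR+24h. The irradiated libraries lay above all -IR libraries, although the -IR replicates differed by 2 times or more in each pool. The mean log2 change was 2.14 (SE 0.37, adjusted p = 0.003257), and it lay between 1.62 and 2.91 over the 21 alternatives. Exons of agt share 29.3% of their bases with twr on the other strand, whose mean log2 change was -0.52. The photolyase genes phr and phr6-4, which reverse ultraviolet lesions, had values of 0.24 (adjusted p = 0.561) and -0.03 (adjusted p = 0.9538).

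mus205 encodes the catalytic subunit of DNA polymerase zeta, which copies past damaged bases. It was at 61.5 and 37.0 CPM in POS -IR and 122 and 129 CPM in POS IR+24h, and at 46.7 and 23.3 CPM in NEG -IR against 103 and 121 CPM in NEG IR+24h. The irradiated libraries of each pool were far above its -IR libraries. Its mean log2 change was 1.53 (SE 0.22, adjusted p = 9.964e-04), with calls in POS (1.36, adjusted p = 0.02534) and NEG cells (1.71, adjusted p = 0.01509). Fancd2 and Fancl, members of the Fanconi anaemia pathway for crosslinks, had mean values of 0.38 (adjusted p = 0.0931) and 0.44 (adjusted p = 0.5823).

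**Figure D3:**
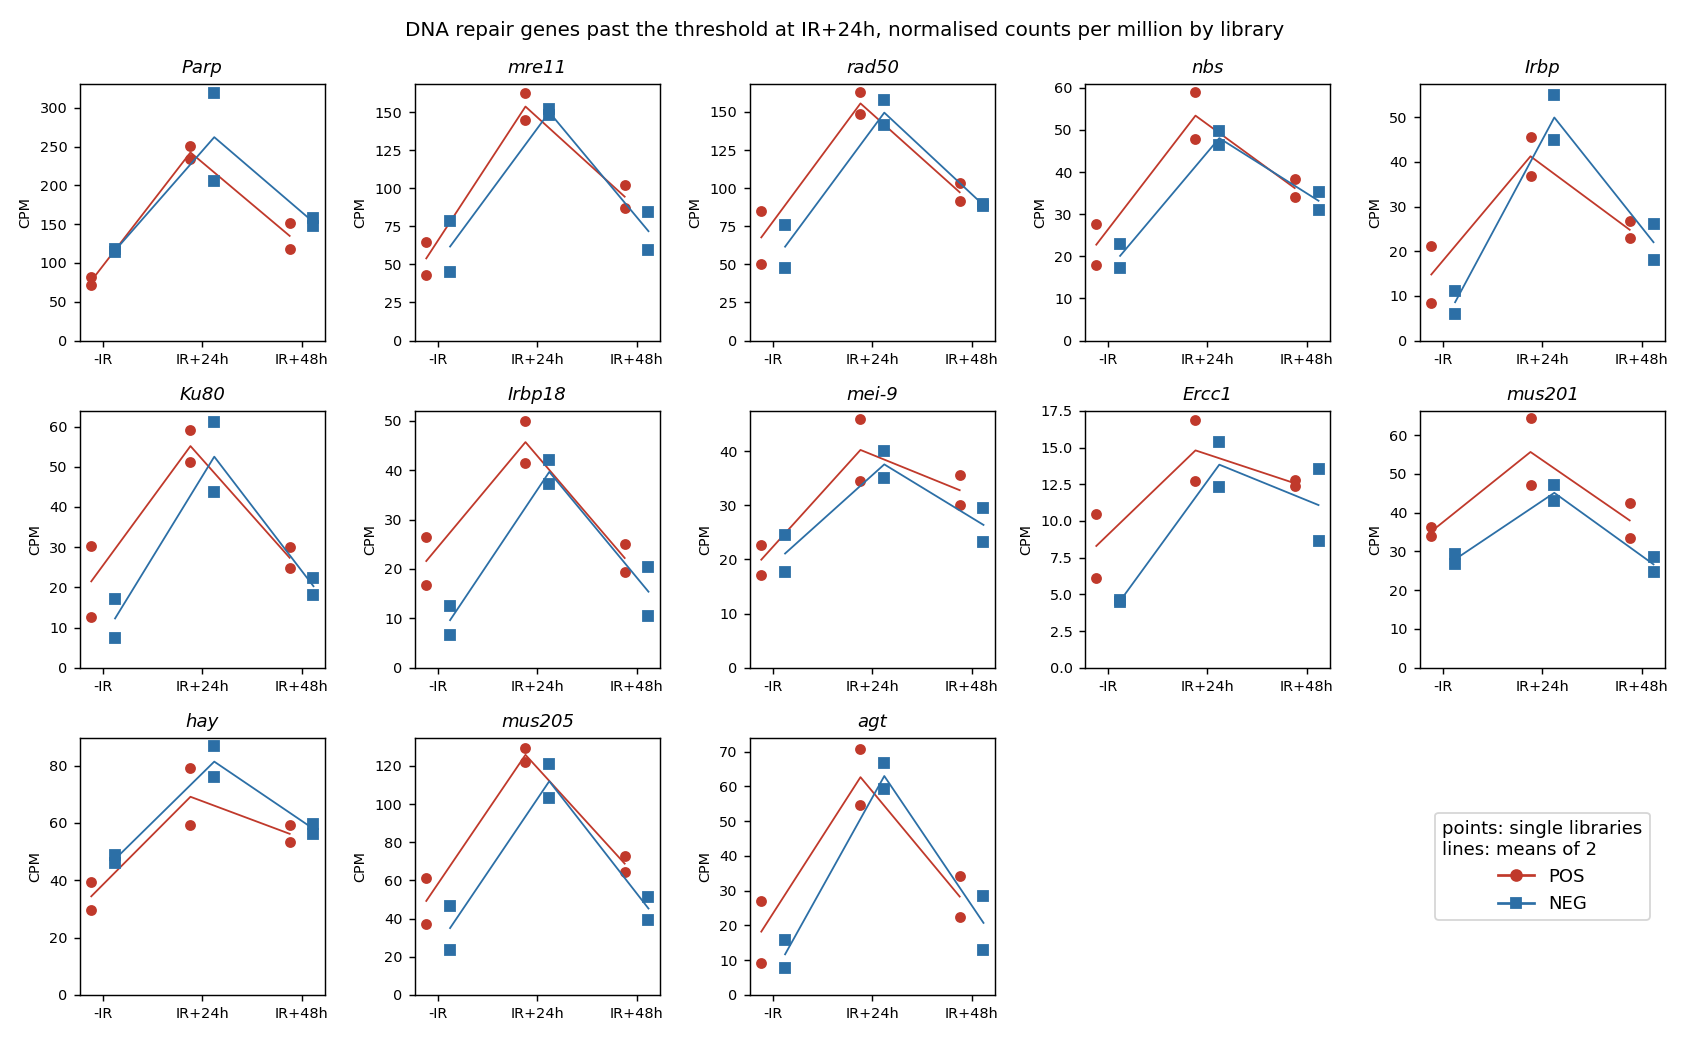
Normalised levels (CPM, linear axes from 0) of 13 DNA repair genes past the threshold at IR+24h, with each point a library, POS cells as circles and NEG cells as squares, and lines joining the means of 2 libraries. In every panel the IR+24h points lie above the -IR points of the same pool, and the IR+48h points of Parp and mus205, the 2 genes called as lower at 48 h than at 24 h, lie below their IR+24h points.

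The remaining groups held no call. XRCC1, a scaffold protein of base excision and single-strand break repair, had a mean log2 change of 0.80 (adjusted p = 0.1349), and was past the threshold in 6 of 21 alternatives, limma voom among them. Its 2 -IR replicate 2 libraries, at 12.7 and 13.5 CPM, were the lowest of the 12. Fen1, the flap nuclease, had a value of 0.43 (adjusted p = 0.1214). The checkpoint mediators mus101 (TopBP1) and mus304 (ATRIP), which help to activate the ATR kinase, had the values -0.63 (adjusted p = 0.1639) and -0.41 (adjusted p = 0.4553). In POS cells their IR+24h libraries all lay below their -IR libraries, which held for 21.6% of all tested genes. In NEG cells the groups overlapped for mus101 and mus304. Both were highest in the -IR replicate 1 libraries, and without the -IR replicate 1 libraries they stood at 0.03 and 0.17, so no direction is given for them, although mus101 was called as lower in 4 of 21 alternatives and mus304 in 1.

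Among the members, levels can be compared per kilobase of exon. Parp, mre11 and Irbp18 had ranks 1, 2 and 3 in -IR, at 31.0, 28.7 and 25.4 CPM per kb, and again at IR+24h, at 81.1, 75.4 and 69.5 CPM per kb. agt moved from rank 13 (11.5 CPM per kb) to rank 4 (48.5), Ku80 from 25 (7.32) to 10 (23.4) and Irbp from 31 (5.44) to 12 (21.2). The least abundant member was spn-D, at 0.307 and 1.04 CPM per kb, followed by Brca2 at 2.52 and 1.77. These are means over POS and NEG libraries, and no test of the order was made. In bulk RNA of sorted cells, a change in the share of cells that express a gene cannot be told apart from a change in RNA per cell.

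By the BDGP6.54 annotation, agt lies on chromosome 3R from 6658806 to 6660100, Irbp on 3R from 11410047 to 11412440, Parp on 3R from 3461351 to 3587054, mre11 on 2L from 11282090 to 11284335 and Ku80 on 2L from 15768630 to 15771159. Irbp18 lies on 3L from 11097446 to 11098186, nbs on 3L from 9720414 to 9723194, rad50 on 2R from 22421013 to 22425482 and mus205 on 2R from 7793625 to 7801044. Of the 14 genes that rose, 8 share exon bases with another gene.

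Tested in the pools separately at IR+24h, 7 members were called in POS cells (Parp, mre11, rad50, nbs, mei-9, hay and mus205), where 4.14% of all genes were higher, and 9 in NEG cells (Parp, mre11, rad50, nbs, Irbp, Ku80, Irbp18, mus205 and agt), where 1.89% were higher. These counts rested on few libraries. When a single library was left out, which keeps 1 library in its group, the POS count rose or fell with the library. Calls over all genes in POS cells moved in the same direction. The NEG count fell without either NEG IR+24h library, where calls over all genes fell too. It also fell without NEG -IR replicate 2, where calls over all genes rose. Without both -IR replicate 1 libraries the counts were 21 in POS and 15 in NEG, and without both -IR replicate 2 libraries they were 14 and 12. Calls over all genes rose too, from 5.33% in POS and 2.16% in NEG to 18.6% and 7.99% in the first of these fits and 13.8% and 11.3% in the second.

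The different lists of calls do not show that POS and NEG cells differed. The POS change minus the NEG change was past the threshold for 0 members by edgeR, limma voom and DESeq2 at 24 h, with 1 member at an unadjusted p under 0.05 by edgeR, and edgeR called 0.0% of all genes. Differences ran from -1.90 for spn-D to 1.25 for Fancl. For Irbp the difference was -1.11 (95% interval -2.38 to 0.15) and for Irbp18 -1.01 (-2.18 to 0.15), so both intervals reach past -2 log2 units. At 48 h 0 members were called by the same 3 tools, with 0 at an unadjusted p under 0.05, and edgeR called 0.0188% of all genes.

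Before irradiation, levels in POS and NEG cells were compared as well, and 0 members passed by edgeR, where 2.67% of all genes did. At an unadjusted p under 0.05 there were 5 members. By limma voom 0 members were called and 2.29% of all genes. DESeq2 called 2 members, Irbp18 among them, and 6.58% of all genes. With the POS and NEG libraries as a replicate block in limma voom, 2 members were called, again with Irbp18, and 8.43% of all genes. Neither count of 2 is a result about the members. The POS minus NEG difference was 1.22 for Irbp18 (SE 0.39, adjusted p = 0.1325) and -0.59 for Parp (SE 0.20, adjusted p = 0.1583). Without NEG -IR replicate 1, a fit that keeps 1 NEG -IR library, edgeR calls rose among the members and over all genes, which is not a result about the members. Without TMM factors the median of all genes in this comparison moved from 0.01 to 0.12.

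At IR+48h, 4 members were higher than in -IR on average over the pools (Parp, nbs, WRNexo and Fancd2), where 3.03% of all genes were higher. Both times were compared with the same -IR libraries, so their values are given side by side. Parp was 2.67-fold higher at 24 h and 1.52-fold at 48 h (log2 0.60, adjusted p = 0.03721), and nbs 2.38-fold and 1.63-fold (log2 0.71, adjusted p = 0.04333). WRNexo, an exonuclease gene related to the human Werner gene, was at 26.7 and 32.8 CPM in POS -IR, 37.2 and 37.5 CPM in POS IR+24h and 49.3 and 45.7 CPM in POS IR+48h. In NEG cells WRNexo was at 37.0 and 37.6 CPM in -IR, 37.3 and 37.5 CPM at IR+24h and 60.5 and 51.5 CPM at IR+48h. Its level was thus highest at 48 h in both pools, with a mean log2 change of 0.63 (SE 0.13, adjusted p = 0.02031) at 48 h and 0.17 (adjusted p = 0.4823) at 24 h. Fancd2, the central protein of crosslink repair, was at 44.1 and 41.3 CPM in POS -IR and 63.6 and 62.7 CPM in POS IR+48h, and at 38.7 and 41.6 CPM in NEG -IR against 54.9 and 68.7 CPM in NEG IR+48h, without overlap (log2 0.59, SE 0.13, adjusted p = 0.0277). The 4 calls did not hold when any 1 of the 4 IR+48h libraries was left out, and fewer held without any 1 of the IR+24h libraries. Calls over all genes fell in these fits as well, each of which keeps 1 library in a group. With the POS and NEG libraries of the same time and number as a replicate block in limma voom, 0 of the 4 were called, and 1.11% of all genes. Parp lost its call without POS -IR replicate 1, Parp and Fancd2 lost theirs without NEG -IR replicate 1, and nbs without POS or NEG -IR replicate 2. The count of members rose without both -IR replicate 1 libraries and without both -IR replicate 2 libraries. Calls over all genes, 4.37% in the reported fit, rose in those fits too.

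Within single pools at IR+48h no member was called by edgeR, in POS cells (1.63% of all genes) or in NEG cells (0.113%). At an unadjusted p under 0.05 there were 9 members in POS and 8 in NEG. limma voom called 0 in both. DESeq2 called 4 in POS and 0 in NEG, with 5.22% and 1.43% of all genes. Without POS -IR replicate 1 alone, Fen1 was called in POS cells, and calls over all genes rose in that fit too. Without both -IR replicate 1 libraries 14 members were called in POS and 6 in NEG, and without both -IR replicate 2 libraries 4 and 3. Over all genes those fits called 13.7% in POS and 1.94% in NEG, and 10.2% and 10.9%.

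**Figure D4:**
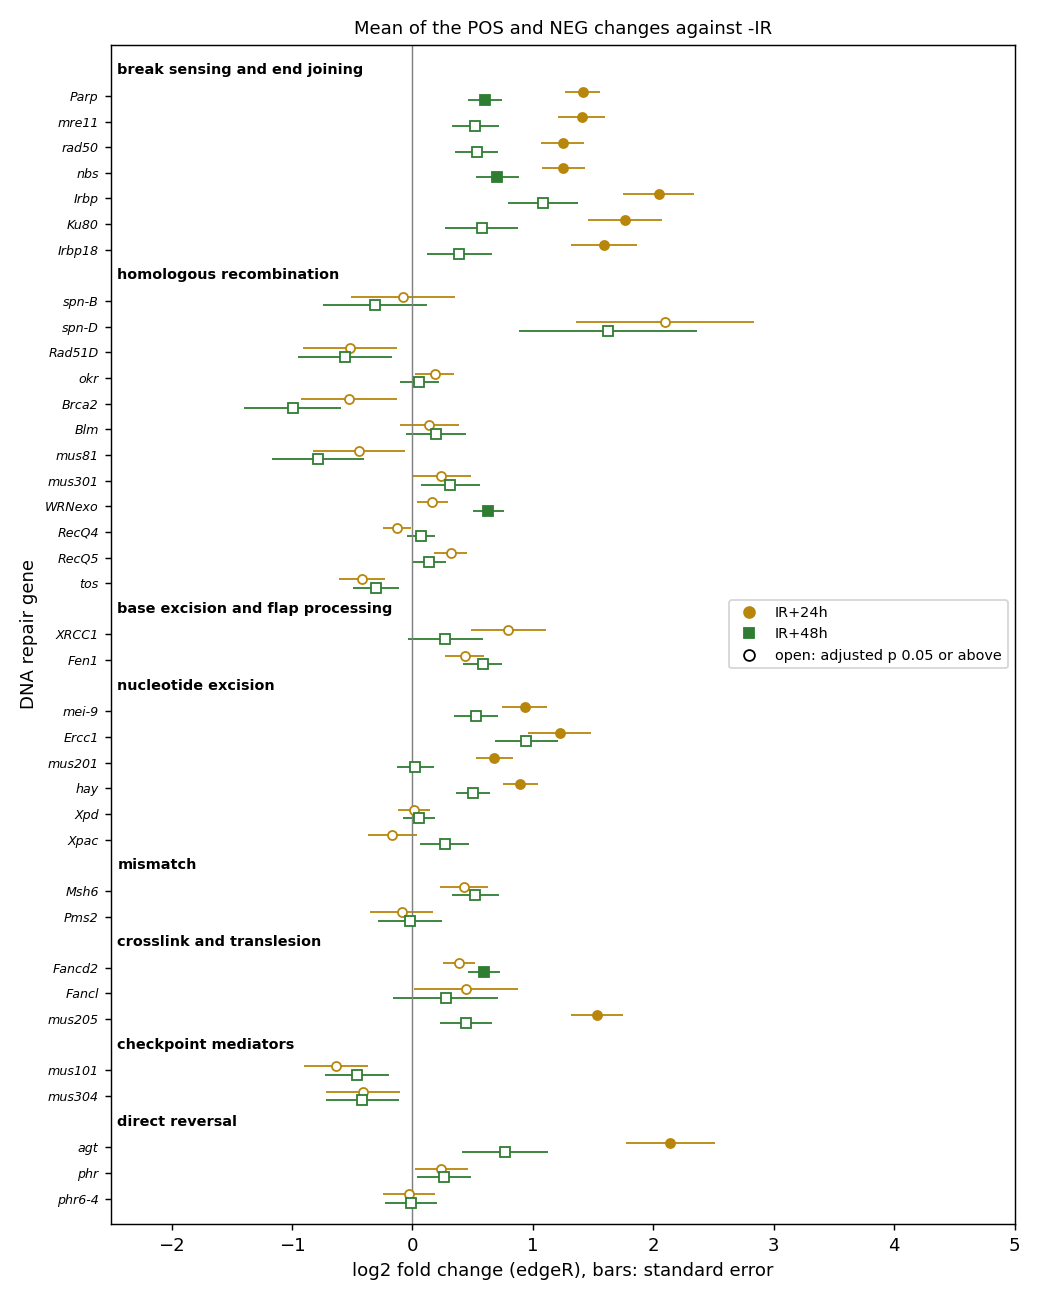
Log2 fold change against -IR averaged over POS and NEG cells (x axis, bars are standard errors) of 37 of the 39 DNA repair genes, grouped by role, at IR+24h (circles) and IR+48h (squares), with filled symbols past the adjusted p threshold of 0.05. The same -IR libraries serve both times, and the 7 break sensing and end joining genes lie between 1.25 and 2.04 at 24 h and between 0.39 and 1.09 at 48 h.

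From 24 to 48 h, 2 members fell on average over the pools, where 0.989% of all genes were lower: Parp by a log2 change of -0.81 (SE 0.14, adjusted p = 0.02637) and mus205 by -1.09 (SE 0.21, adjusted p = 0.03898). mus205 was at 73.0 and 64.6 CPM in POS IR+48h and 51.1 and 39.4 CPM in NEG IR+48h, below all IR+24h libraries. The 7 break sensing and end joining genes all had negative values, from -0.55 for nbs to -1.20 for Irbp18, and agt had the most negative of all members, -1.37 (adjusted p = 0.1141). For 11 members both IR+48h libraries lay below both IR+24h libraries in each pool, which held for 10.9% of all genes. Over all genes limma voom called 1.7%, DESeq2 2.84%, and limma voom with the POS and NEG libraries as a replicate block 1.03%. The count of member calls was 8, 10 and 6 in the same order. The count fell without any 1 library of the IR+24h and IR+48h groups and rose without any 1 -IR library. Calls over all genes fell and rose in the same fits, each of which keeps 1 library in a group. mus205 was not called without TMM factors, where 1 member was.

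In each pool alone, edgeR called 0 members between 24 and 48 h, with 9 at an unadjusted p under 0.05 in POS and 12 in NEG, and called 0.0% of all genes. limma voom called 0 members in both. DESeq2 called 1 in POS and 3 in NEG, with 0.772% and 0.688% of all genes. Without both -IR replicate 1 libraries, which enter this comparison only through the shared spread, 4 members were called in POS and 8 in NEG, and 1.27% and 1.69% of all genes. The irradiated levels of Irbp at 48 h, 26.7 and 22.9 CPM in POS and 26.1 and 18.0 CPM in NEG, still lay above the -IR libraries of their pool, and those of agt, 34.2 and 22.4 CPM in POS and 28.5 and 12.9 CPM in NEG, overlapped with them. Ku80 at 48 h was at 30.0 and 24.7 CPM in POS cells, within the -IR range, and at 22.4 and 18.1 CPM in NEG cells, just above it.

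Of other genes of DNA repair, taken from a wider list, 33 were tested. At IR+24h 7 of them rose and 0 fell by edgeR, where 6.77% of all genes were higher and 3.21% lower. Their median log2 change was 0.11. The ligase genes DNAlig3 (1.71, adjusted p = 0.0022921) and DNAlig4 (1.35, adjusted p = 0.044797), which seal ends, were among the 7, as were RpA-70 (1.48, adjusted p = 4.1131e-05) and RPA2 (0.70, adjusted p = 0.0018725), which coat single-stranded DNA. Xpc (0.78), pic (0.72) and DNApol-iota (0.62) completed them, and the first is the lesion sensor of nucleotide excision. The remaining genes of this list, among them mus308 (PolQ, 0.53, adjusted p = 0.17308), were not called. In the -IR libraries of replicate 1 the 33 genes also leaned higher. This held for 26 of 33 in POS (78.8%, against 53.1% of all tested genes) and 21 of 33 in NEG cells (63.6% against 47.5%).

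Of 10 checkpoint genes tested, p53 rose (1.65, adjusted p = 5.2141e-04) and grp, the fly Chk1, fell (-0.35, adjusted p = 0.029911). Of 5 cell death genes tested, hid, Corp and egr rose. Of 24 genes of DNA replication and S phase, 3 rose (PCNA, RnrL and DNApol-alpha60) and Orc1 fell, with a median log2 change of 0.11. Over all genes 6.77% were higher and 3.21% lower, so the calls in the checkpoint and replication lists are not a result about those lists. Summed fat body markers were lower at IR+24h in POS cells (20.6 to 27.9 CPM in -IR, 8.97 to 12.9 CPM at IR+24h), and hemocyte markers in NEG cells ranged from 58.1 to 130 CPM in -IR, from 71.7 to 240 CPM at IR+24h and from 278 to 280 CPM at IR+48h. Muscle precursor markers in POS cells went from 63.3 to 111 CPM in -IR to 145 to 152 CPM at IR+24h and 218 to 232 CPM at IR+48h. The part of these cell types in the changes of the DNA repair genes was not tested.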

How the data were processed

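RNA was measured in 12 libraries of sorted wing disc cells, 2 in each of 6 groups, which the study describes as independent biological samples. The authors captured poly-A RNA, trimmed the reads with BBDuk, aligned and counted them with STAR 2.6.0a against an Ensembl annotation of the Release 6 genome, and deposited raw counts per gene, without normalization. The strand of counting is not given in the sources used here. The table holds 1 further column that matches no sample and was not analysed here.

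Groups were taken from the sample labels. Counts of all 17753 genes were filtered with filterByExpr (10617 kept), scaled with TMM factors and fitted with edgeR 4.0.16 under R 4.3.3, with a mean for each of the 6 groups and 1 estimate of the spread from all 12 libraries. Quasi-likelihood F tests were two-sided, adjusted by the Benjamini-Hochberg method over the 10617 genes, with a threshold of 0.05, and an adjusted p of edgeR is meant where no tool is named. The mean contrast averages the POS and NEG changes, so 4 libraries stand against 4, fitted as independent. CPM values are counts per 1000000 of the TMM-scaled library size, and CPM per kb divides them by the exon length in the BDGP6.54 annotation, in which 37 members matched by symbol and 2 (Parp and mus205) by a synonym. On simulated counts of 10097 genes, the edgeR fit of the mean change at IR+24h recovered 34 of 100 genes changed 2-fold. It recovered 100 of 100 changed 4-fold, and 12 of its 146 calls were unchanged genes. The simulated libraries were independent, with the same dispersion (0.09) for every gene and no other difference between groups. The real POS and NEG -IR libraries deviated together (correlation 0.55), so these rates do not describe the fit on these data. The interval of a ratio of spn-D counts is exact and holds at 95%.

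Alternatives were limma voom 3.58.1, with which the study compared groups, and DESeq2 1.42.0. The study's time course test, maSigPro, was not run here. Other alternatives were no TMM factors, no filter, the replicate number as a block, only the groups compared, and each library left out. The fits without both -IR libraries of 1 replicate number, and limma voom with the POS and NEG libraries of the same time and number as a replicate block, were added after seeing the data. Members and lists were chosen with earlier results of these data known, and any member could be named, with values per library for those past the threshold in a contrast. Values per library of spn-D, which passed in no contrast, are given after its values were seen. Some members enter the counts and are not reported here by name. Figures were drawn with matplotlib 3.10.9. No sequences are shown, since no sequence table or genome was used here.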

Additional observations from a re-analysis of the deposited data

How the results depend on the processing

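With 2 libraries a group, counts of members past the threshold moved with the processing while the mean rise at IR+24h stayed. The mean count at IR+24h was 14, and 11 to 23 over the fits that left out libraries. Parp, mre11, rad50, nbs, Irbp, Ku80, Irbp18, hay, mus205 and agt were called in all 21 alternatives, mei-9 in 20, and Ercc1 and mus201 in 18. No called value changed direction in the alternatives run. The fits without both -IR libraries of the same replicate number leave out the spread between the -IR replicates, so a call kept there adds little. The cause of the other shifts was not tested, except that fewer libraries entered some fits.

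With limma voom the count was 12 for POS at IR+24h (7 in the reported fit) and 8 for the mean change from 24 to 48 h (2). Over all genes limma voom called 6.45% and 1.7%. With DESeq2 the count was 13 for POS at IR+24h, 4 for POS at IR+48h (0) and 9 for the mean at IR+48h (4). It was 10 for the mean change from 24 to 48 h, and 1 in POS and 3 in NEG from 24 to 48 h (0 and 0). For POS against NEG without IR it was 2 (0). Over all genes DESeq2 called 9.45%, 5.22%, 9.18%, 2.84%, 0.772%, 0.688% and 6.58% in the same order. Without TMM factors 1 member was left for the mean change from 24 to 48 h, and 0.716% of all genes were called. Without a filter the counts were 13 for POS at IR+24h, 2 for POS and 1 for NEG at IR+48h, and 11 for the mean at IR+48h. From 24 to 48 h they were 9 for the mean change, 4 in POS and 7 in NEG. For POS against NEG without IR 3 were called. Over all genes this fit called 6.34%, 4%, 1.87%, 6.61%, 2.35%, 0.908%, 0.991% and 4.8% in the same order. With only the groups compared the counts were 2 for POS and 0 for NEG at IR+24h, and 0 for the mean at IR+48h. From 24 to 48 h they were 12 for the mean change, 8 in POS and 3 in NEG. Over all genes these fits called 1.59%, 0.504%, 0.992%, 6.58%, 3.99% and 0.605% in the same order. A count near the share over all genes is not a result about the members.

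Over the fits that left out libraries, counts ran from 1 to 21 for POS and 0 to 15 for NEG at IR+24h, 0 to 14 for POS, 0 to 6 for NEG and 0 to 24 for the mean at IR+48h, 0 to 12 for the mean change from 24 to 48 h, 0 to 5 in POS and 0 to 8 in NEG from 24 to 48 h, and 0 to 1 for POS against NEG without IR. The POS minus NEG differences gave 0 throughout. Calls over all genes moved in those fits as well, so the ranges are not a result about the members.

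Replicate numbers are not stated to mark a shared batch. Correlations of replicate deviations between groups ran from -0.31 (POS -IR with POS IR+24h) to 0.55 (NEG with POS -IR). POS and NEG of the same time gave 0.55, 0.17 and 0.21, all above 0.1, and groups of different times gave none above 0.1, so a number shared across times was not taken to pair libraries. With a replicate block the mean count was 14 at IR+24h, 5 at IR+48h and 5 for the change from 24 to 48 h. Over all genes that fit called 10.1%, 4.52% and 0.932%. POS and NEG libraries of the same time and number were also a replicate block in limma voom. At IR+24h the counts were then 13 for the mean, 12 for POS and 9 for NEG, and 0 for the mean at IR+48h. They were 6 for the mean change from 24 to 48 h, 1 in NEG from 24 to 48 h and 2 for POS against NEG without IR. Over all genes that fit called 5.93%, 6.62%, 1.91%, 1.11%, 1.03%, 0.198% and 8.43% in the same order.

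Depth limited spn-D, at 1 count in each NEG -IR library, and the other members had at least 10 counts in every library.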
